A study of Rattus norvegicus with 6 samples.

Results

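The proteasome genes described here are the 40 probes whose platform gene symbol begins with Psm, a letter from a to g and a number, out of 21791 probes of the array, 13387 of which carry a symbol. Each of the 40 probes stands for a different gene. Another 3 probes with symbols of this pattern were left out by the rule and are not analysed here. By role the set holds 8 subunits of the 20S alpha ring, 9 of the 20S beta ring, 6 ATPases and 3 other subunits of the 19S base, 7 subunits of the 19S lid, 3 assembly chaperones and 3 activator genes. The last probe, Psmc3ip, matches by its symbol alone, since its product acts in meiotic recombination and is no part of the proteasome. Of the 40 genes 38 were bright enough to be tested. Psma8, the alpha subunit of germ cells, and Psmb11, the beta subunit of the thymic cortex, were detected on 0 of 6 arrays. Psmd14, the lid deubiquitinase, is not analysed here.

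Trigeminal nerves were taken from rats aged 85 days that had received no treatment, of inbred strain BDIX, in which the carcinogen ethylnitrosourea induces malignant schwannomas of this nerve, of inbred strain BDIV, which is resistant, and of the congenic strain BDIX.BDIV-Mss4a. The congenic strain, called congenic below, carries the BDIV segment Mss4a on the BDIX background, so that most of its genome is that of BDIX. The labels name no transgene or engineered allele for any of the 3 strains. For each strain and sex the nerves of several animals were pooled and hybridised to 1 Illumina rat BeadChip, which gave 6 arrays, with 2 arrays per strain, and the p-values reflect only how far these pools varied beyond the effects of strain and sex.

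The proteasome is the main protease of the cytosol and nucleus and degrades proteins marked with ubiquitin. In its barrel-shaped 20S core, outer rings of alpha subunits form a gate and inner rings of beta subunits hold the proteolytic sites. The 19S particle docks on the alpha ring. Its lid and base bind and deubiquitinate substrates, and its ring of ATPases unfolds them and threads them into the core. In mammalian cells the subunit genes are known to be transcribed together, with the transcription factors encoded by Nfe2l1 and Nfe2l2 raising them through antioxidant response elements when proteolysis or redox balance is disturbed. In peripheral nerve the proteasome serves the turnover of proteins in axons and in Schwann cells.

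Promoters are shown for Psmd3 and Psma1, the lid and alpha ring genes with the largest called strain differences, and for Psmb5 and Psmb6, catalytic genes of the beta ring. Each sequence runs 5′ to 3′ from 250 bases before to 50 bases after the start of the gene in RefSeq, on the GRCr8 build. Capitals mark matches on either strand to TGACNNNGC, the core letters of an antioxidant response element.
Psmd3 (chr10:84139688-84139987, plus strand): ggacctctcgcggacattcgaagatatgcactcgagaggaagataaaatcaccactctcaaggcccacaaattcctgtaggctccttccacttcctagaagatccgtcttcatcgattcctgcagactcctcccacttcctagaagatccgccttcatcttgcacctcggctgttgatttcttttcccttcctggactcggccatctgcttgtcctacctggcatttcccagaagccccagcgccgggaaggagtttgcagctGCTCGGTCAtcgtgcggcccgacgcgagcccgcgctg
Psmb5 (chr15:32047330-32047629, minus strand): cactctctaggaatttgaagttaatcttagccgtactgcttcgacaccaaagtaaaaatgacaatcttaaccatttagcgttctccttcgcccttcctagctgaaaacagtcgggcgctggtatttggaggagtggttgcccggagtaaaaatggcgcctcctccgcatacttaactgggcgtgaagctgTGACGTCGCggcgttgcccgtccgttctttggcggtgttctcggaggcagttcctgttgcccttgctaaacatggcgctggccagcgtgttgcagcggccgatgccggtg
Psmb6 (chr10:55737638-55737937, plus strand): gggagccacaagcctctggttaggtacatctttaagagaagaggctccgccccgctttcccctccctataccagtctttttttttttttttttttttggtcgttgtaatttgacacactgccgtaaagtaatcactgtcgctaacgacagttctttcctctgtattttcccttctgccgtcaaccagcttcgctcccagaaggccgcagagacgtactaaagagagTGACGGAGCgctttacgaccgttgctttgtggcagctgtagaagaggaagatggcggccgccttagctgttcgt
Psma1 (chr1:177887808-177888107, minus strand): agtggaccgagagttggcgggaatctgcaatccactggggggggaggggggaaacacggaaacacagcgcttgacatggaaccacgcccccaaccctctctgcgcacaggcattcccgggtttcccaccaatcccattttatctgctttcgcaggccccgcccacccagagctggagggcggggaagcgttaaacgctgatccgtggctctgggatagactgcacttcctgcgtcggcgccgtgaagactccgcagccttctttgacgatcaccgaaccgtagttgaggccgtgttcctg
The match lay 14 to 22 bases after the start in Psmd3, between positions -60 and -52 in Psmb5 and between -24 and -16 in Psmb6, and the window of Psma1 held none. Promoters were found for 36 of the 40 genes, and not for Psma7, Psmb11, Psmd12 and Psmd6. Among the 36, 8 held TGACNNNGC (22.2%), namely Psma3, Psmb2, Psmb5, Psmb6, Psmd1, Psmd3, Psmd9 and Psme4, against 12.1% of all 33469 promoters of the same length and 12.5% of those of protein-coding genes. The CCAAT box, searched on both strands, was in 16 of the 36 (44.4%), against 37.5% of all promoters. Sites of these motifs overlapped in 1 of the genes. A match is a run of letters and was not tested as a binding site.

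Detected probes numbered 8796 to 10307 per array, and the upper quartile of the signal stood 2.59 and 2.64 times above background on the congenic arrays against 5.34 to 6.48 times on the others. Markers of myelinating Schwann cells were detected on all 6 arrays for 6 of the 7 on the array, and markers of sensory neurons for 14 of 16, with Calca and Scn9a detected on none. The congenic arrays stood apart in airway and oral gland genes, whose summed log2 level was 12.07 and 12.15 there against 7.64 to 7.82 on the other 4 arrays. The BDIX female array stood apart in macrophage markers, with a summed log2 level of 10.95 against 12.05 to 12.50 elsewhere, and 0 of the 7 macrophage markers on the array went undetected throughout. Neutrophil and marrow markers summed to 13.06 and 13.04 on the congenic and BDIX male arrays, against 8.50 to 10.54 elsewhere. Pituitary markers summed to 12.84 and 12.43 on the congenic and BDIX female arrays, against 7.75 to 10.76 elsewhere. In these pools fewer cells of a type and less RNA per cell cannot be told apart, nor can strain be told apart from a hybridisation batch, since the labels name none. A strain difference in the sequence under a probe cannot be told from one in transcript level either, and probe sequences were not analysed here.

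On a log2 scale, after background correction and quantile normalisation, the median of the 38 tested genes lay 0.28 and 0.29 above their own 6-array means on the BDIV male and female arrays. It lay 0.02 above on the BDIX male and 0.27 below on the BDIX female array, and 0.07 (male) and 0.15 (female) below in the congenic strain. Within each array, the median gene ranked between the 93.5th percentile of all probes, on the BDIX female array, and the 96.1st, on the BDIV female array. The alpha and beta rings, which enter the core in equal numbers, did not keep the same distance over the arrays. The median deviation of the beta ring minus that of the alpha ring was 0.49 (male) and 0.59 (female) in the congenic pools, -0.32 and -0.69 in BDIX and 0.08 and -0.01 in BDIV. Because each gene is set against its own mean, these distances nearly balance out over the arrays, and they order the strains without giving the ratio of the rings in any of them.

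**Figure D1:**
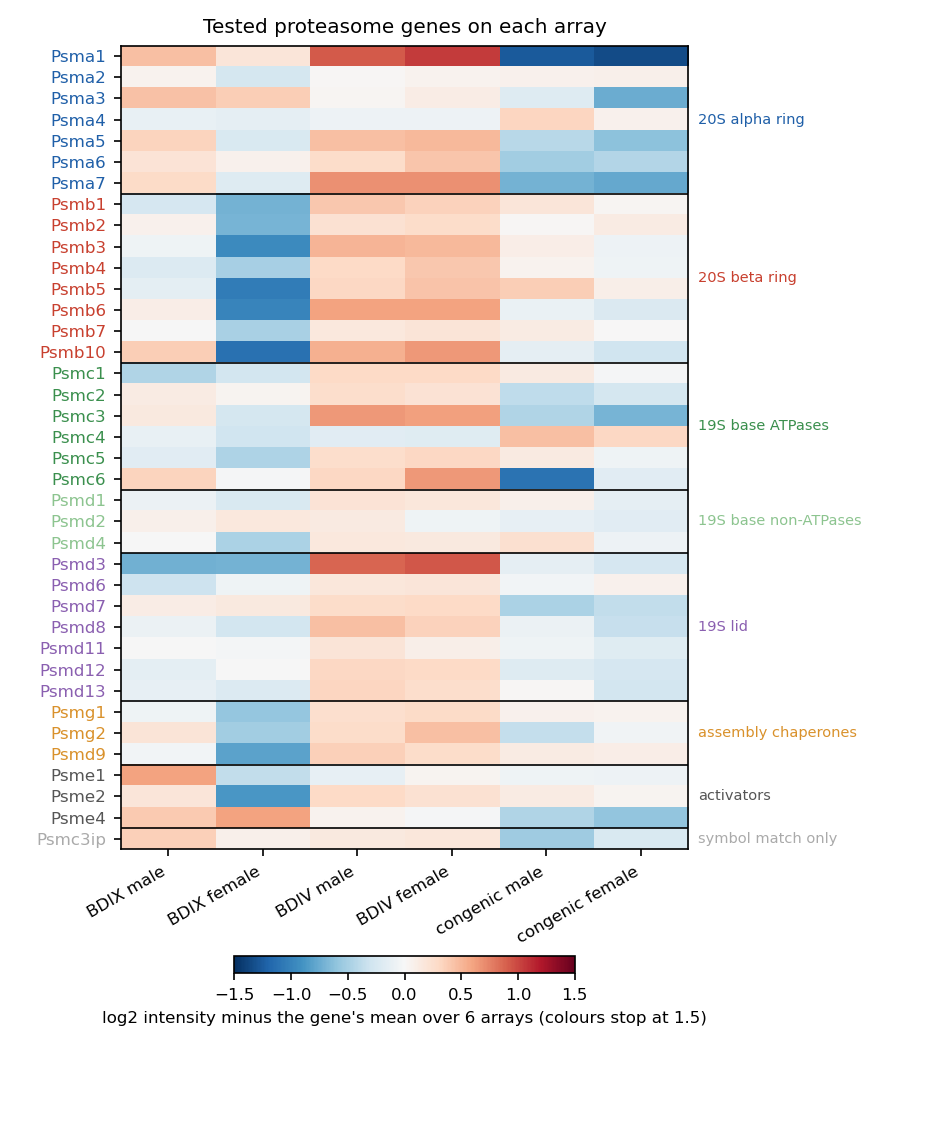
Log2 intensity of the 38 tested genes on each of the 6 arrays, as the difference from the gene's own mean over the arrays, with rows grouped by role. The beta ring is low on the BDIX female array, where all 8 tested beta genes have their lowest value, and the alpha genes Psma1, Psma5, Psma6 and Psma7 are low on both congenic arrays.

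The first comparison set resistant BDIV nerve against susceptible BDIX nerve. Of the 38 genes 9 were higher in BDIV and 0 were lower at a Benjamini-Hochberg adjusted p under 0.05 over all 10484 tested probes, in a limma model with strain and sex, while 13.7% of all tested probes were called higher and 13.6% lower. The 9 are the lid gene Psmd3, the beta ring genes Psmb1, Psmb3, Psmb4, Psmb5 and Psmb6 and the base ATPase genes Psmc1, Psmc3 and Psmc5. The median log2 difference was 0.44 over the 38 genes and -0.03 over all tested probes, and 33 of the 38 values were above 0. For 30 genes both BDIV arrays lay above both BDIX arrays, and for 2 both lay below, where 33.0% and 37.7% of all tested probes did. Markers of sensory neurons moved the same way as these genes. Of their 14 tested markers 11 were higher in BDIV, with summed log2 levels of 17.19 and 17.20 there and 16.28 and 16.57 in BDIX. Of the 7 tested markers of myelinating Schwann cells 5 were lower, with sums of 15.50 and 15.70 in BDIV and 16.37 and 16.78 in BDIX. Of 11 tested fibroblast and matrix markers 8 were lower, with sums of 15.94 and 16.15 against 16.70 and 16.81, and 7 of 9 red cell markers were lower. Also lower were 4 of 6 endothelial and 6 of 9 neutrophil and marrow markers, and 2 of 4 muscle markers were higher. The part of these cells in the result was not tested.

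Psmd3, a scaffold subunit of the lid, had the largest difference of the set. Its log2 intensity was 10.41 on the BDIX male and 10.42 on the BDIX female array, 12.00 and 12.06 on the BDIV arrays, and 10.99 and 10.87 on the congenic arrays. The 3 strains did not overlap, and the pair of arrays of each strain lay close together. BDIV was 3.06 times BDIX, a log2 difference of 1.62 ± 0.17 (SE, adjusted p = 0.00276), and this call held in all 19 processing alternatives, with differences between 1.55 and 1.85. The other 6 lid genes had positive differences, from 0.16 for Psmd7 and Psmd11 to 0.58 for Psmd8, and none of these passed the test. For all 7 lid genes both BDIV arrays lay above both BDIX arrays. Psmd8 was not detected on either BDIX array, and BDIV was at least 1.42 times higher there (adjusted p = 0.0706).

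In the beta ring 5 of 8 tested genes were called higher in BDIV, with a median log2 difference of 0.91, and all 8 had both BDIV arrays above both BDIX arrays. Psmb5 encodes the chymotrypsin-like site of the core. Its log2 intensity was 12.15 in the BDIX male, 11.25 in the BDIX female, 12.62 and 12.72 in BDIV and 12.67 and 12.39 in the congenic arrays. The BDIX female array was the low one and the gap between the BDIX arrays, 0.90, was close to the strain difference of 0.97 ± 0.26 (SE, adjusted p = 0.0310). Psmb6, the caspase-like site, read 11.90 and 10.81 in BDIX, 12.40 and 12.41 in BDIV and 11.71 and 11.58 in the congenic, and its difference was 1.05 ± 0.28 (adjusted p = 0.0310). Psmb7, the trypsin-like site, read 11.92 and 11.43 in BDIX, 12.08 and 12.11 in BDIV and 12.04 and 11.93 in the congenic, and its difference of 0.42 ± 0.20 did not pass (adjusted p = 0.151). Psmb10, which takes the place of Psmb7 in the immunoproteasome, read 10.72 and 9.23 in BDIX, 10.89 and 11.00 in BDIV and 10.22 and 10.06 in the congenic. Its difference of 0.97 ± 0.36 was as large as that of Psmb5 but did not pass (adjusted p = 0.0827), the BDIX arrays being furthest apart for this gene.

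The other called beta genes encode non-catalytic subunits that complete the ring. Psmb1 read 12.66 and 12.20 in BDIX, 13.32 and 13.26 in BDIV and 13.10 and 12.94 in the congenic, so that the BDIX arrays were the lower pair. Its log2 difference between BDIV and BDIX was 0.86 ± 0.20 (adjusted p = 0.0201). Psmb3 differed by 1.0 ± 0.25 (adjusted p = 0.0241) and Psmb4 by 0.71 ± 0.20 (adjusted p = 0.0369), while Psmb2 differed by 0.56 ± 0.25 and did not pass (adjusted p = 0.133). The alpha ring had 0 of 7 tested genes called, with a median of 0.22 and values between -0.33 for Psma3 and 0.66 for Psma1. The beta ring median exceeded the alpha ring median by 0.70, and by 0.45 to 0.86 over the 19 alternatives.

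Of the 6 base ATPase genes, which encode the unfolding ring, Psmc3 (0.69 ± 0.19, adjusted p = 0.0373), Psmc1 (0.66 ± 0.20, adjusted p = 0.0455) and Psmc5 (0.61 ± 0.18, adjusted p = 0.0442) rose. Psmc2, Psmc4 and Psmc6 had differences of 0.15, 0.03 and 0.32 that did not pass. Among the other base genes, the scaffold genes Psmd1 and Psmd2 had 0.34 and -0.08 and the ubiquitin receptor gene Psmd4 had 0.39, none of them called. The assembly chaperones lay above 0 without a call. Psmg1 and Psmg2, whose products pair to build the alpha ring, had 0.59 and 0.53, and Psmd9, a chaperone of the base, had 0.74 (adjusted p = 0.0526). Psme1 and Psme2, which form an interferon-induced cap on the core, had -0.15 and 0.61. Psme4, the gene of a nuclear activator, had -0.49, and Psmc3ip had -0.06, again without a call. Of the tested genes with a promoter here, 3 of 8 with TGACNNNGC and 6 of 27 without it were called higher in BDIV. In congenic minus BDIV 1 of 8 with it and 8 of 27 without it were called lower, and 0 and 1 higher. In congenic minus BDIX 1 of 8 and 1 of 27 were called lower, and 0 and 0 higher. Of all tested probes 18.9% and 7.56% were called lower in these 2 comparisons. The splits by promoter were not tested.

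The median difference over the 38 genes changed with single arrays. It was 0.37 without the BDIV female array and 0.59 without the BDIV male array, against -0.03 and -0.04 over all tested probes. Without the BDIX male array it was 0.61, and without the BDIX female array 0.24, against -0.03 and -0.05 over all tested probes. The beta ring median was 0.55 without the BDIX female array.

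**Figure D2:**
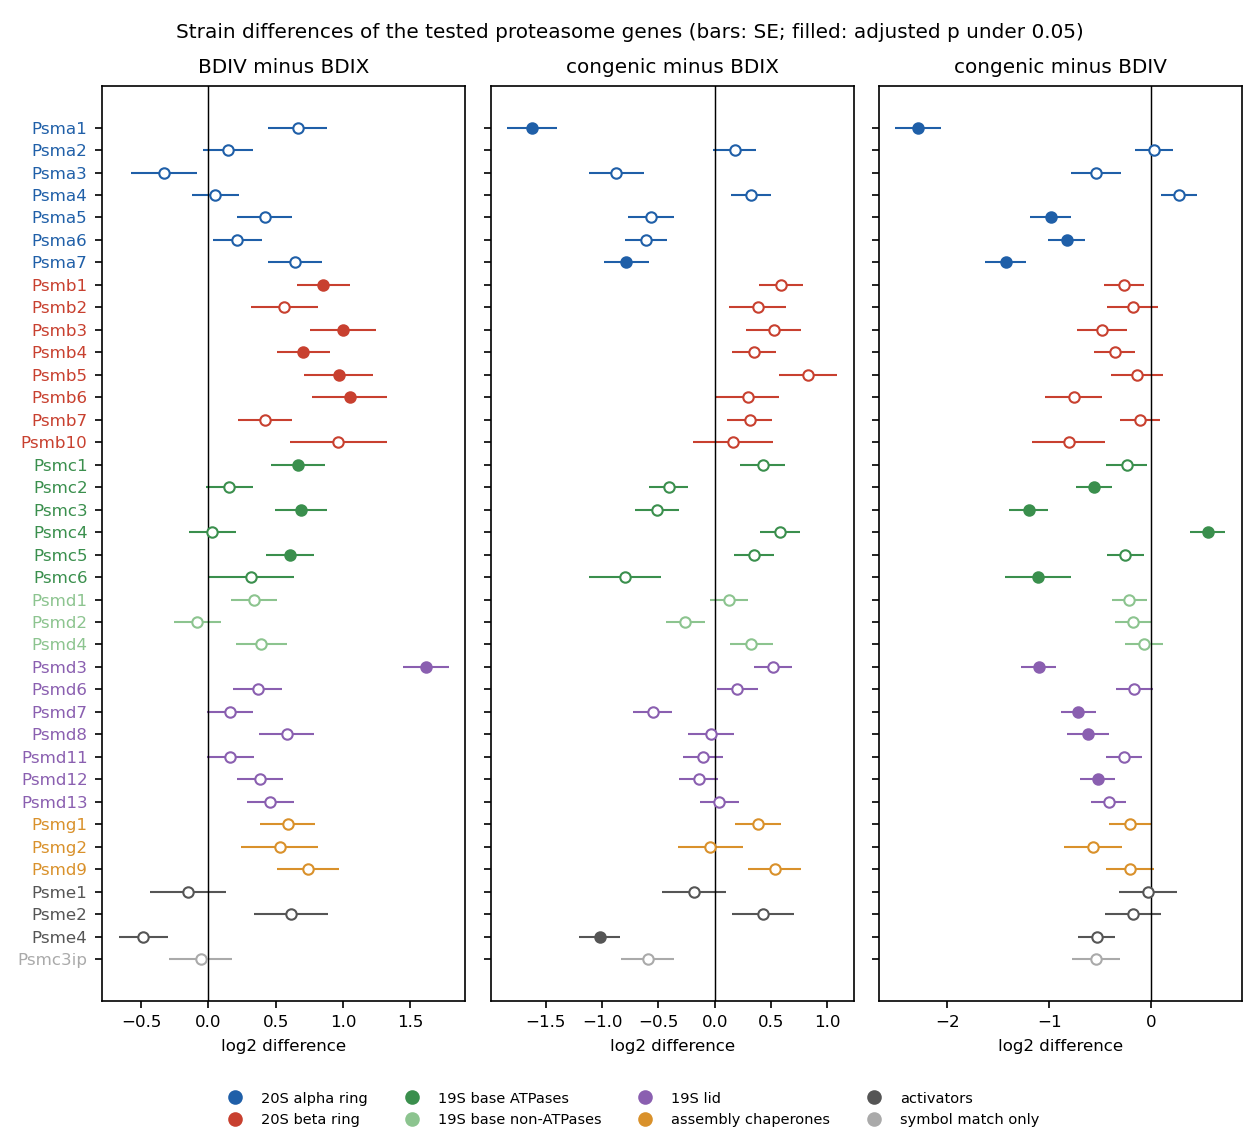
Log2 difference of each tested gene in the 3 strain comparisons, with SE as bars, coloured by role, and filled where the adjusted p was under 0.05. In BDIV minus BDIX the beta ring lies between 0.42 and 1.05 and Psmd3 at 1.62, and in both congenic comparisons Psma1 is the lowest value, at -1.62 and -2.28.

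The second comparison set the congenic strain against BDIX, from which it differs by the Mss4a segment. Of the 38 genes 3 were lower in the congenic strain and 0 were higher, while 7.56% of all tested probes were called lower and 4.33% higher. The 3 are the alpha ring genes Psma1 and Psma7 and the activator gene Psme4. The median over the 38 genes was 0.14, against 0.00 over all tested probes. For 13 genes both congenic arrays lay above both BDIX arrays and for 14 below, against 29.8% and 29.2% of all tested probes. Beside this, 7 of 7 airway and oral gland markers and 2 of 4 muscle markers were higher in the congenic strain. Lower were 3 of 7 markers of myelinating Schwann cells and 3 of 9 red cell markers. Of the 11 fibroblast and matrix markers 4 were lower and 1 higher, of the 14 sensory neuron markers 1 was lower and 1 higher, and 1 of 6 endothelial markers was higher. Their part in the result was not tested.

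Psma1, an alpha subunit of the outer ring, had log2 intensities of 6.12 and 6.04 in the male and female congenic pools, 7.84 and 7.57 in BDIX and 8.30 and 8.43 in BDIV. The strains did not overlap and the congenic pair was lowest. On the congenic arrays the probe lay close to background, with detection p-values of 0.00848 and 0.00606 against a threshold of 0.01. The congenic level was 3.08 times below BDIX, a log2 difference of -1.62 ± 0.22 (SE, adjusted p = 0.0134) that stayed called in all 19 alternatives, at -2.14 to -1.12. Psma7, another alpha subunit, read 11.88 and 11.82 in the congenic, 12.87 and 12.39 in BDIX and 13.27 and 13.27 in BDIV. The order of the strains was that of Psma1, and the difference between congenic and BDIX was -0.78 ± 0.20 (adjusted p = 0.0476). Psme4 read 9.80 and 9.66 in the congenic, 10.64 and 10.86 in BDIX and 10.30 and 10.23 in BDIV, with the congenic arrays again the lowest pair. It fell by 1.02 ± 0.18 on the log2 scale (adjusted p = 0.0227), and the BDIV value lay between those of the other strains without a call against either (adjusted p = 0.0858 against BDIX and 0.0544 against the congenic).

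Within the alpha ring the differences went both ways. Psma3, Psma5 and Psma6 had -0.87, -0.57 and -0.61 (adjusted p = 0.0589, 0.101 and 0.0685), and for these as for Psma1 and Psma7 both congenic arrays lay below both BDIX arrays. Psma3 was not detected on either congenic array and was at least 1.75 times lower there. Psma2 and Psma4 had 0.18 and 0.32, with both congenic arrays above. The alpha ring median was -0.61.

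The beta ring showed the opposite sign without a call. Its 8 tested genes had positive differences, from 0.16 for Psmb10 to 0.83 for Psmb5 (adjusted p = 0.0724), with a median of 0.36. Psmb6 had 0.29 (adjusted p = 0.490) and Psmb7 0.31 (adjusted p = 0.307), and the value of Psmb10 did not pass (adjusted p = 0.778). The beta ring median exceeded the alpha ring median by 0.98, and by 0.87 to 1.29 over the 19 alternatives. The beta ring median itself was 0.11 without the BDIX female array and 0.81 without the BDIX male array. Taken in males only, 1 array minus 1 array, Psmb2, Psmb6 and Psmb10 had -0.06, -0.19 and -0.50. When arrays were scaled to equal medians in place of equal quantiles, the median of all tested probes moved to -0.52, that of the beta ring to -0.12 and that of the alpha ring to -1.10. Relative to all tested probes the beta ring median was then 0.40 and the alpha ring median -0.58, against 0.36 and -0.61 with equal quantiles.

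Among the base ATPases Psmc4 had 0.58 (adjusted p = 0.0691), Psmc1 0.42 and Psmc5 0.35, whereas Psmc6, Psmc3 and Psmc2 had -0.79, -0.51 and -0.41, and none of the 6 was called. In the lid Psmd3 had 0.52 (adjusted p = 0.0858) and Psmd7 -0.55 (adjusted p = 0.0729), and the other 5 lay between -0.14 and 0.20. Psmg1, Psmg2 and Psmd9 had 0.38, -0.04 and 0.53. The median over the 38 genes changed with single BDIX arrays. It was 0.28 without the BDIX male array and -0.05 without the BDIX female array, against -0.02 and 0.01 over all tested probes.

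**Figure D3:**
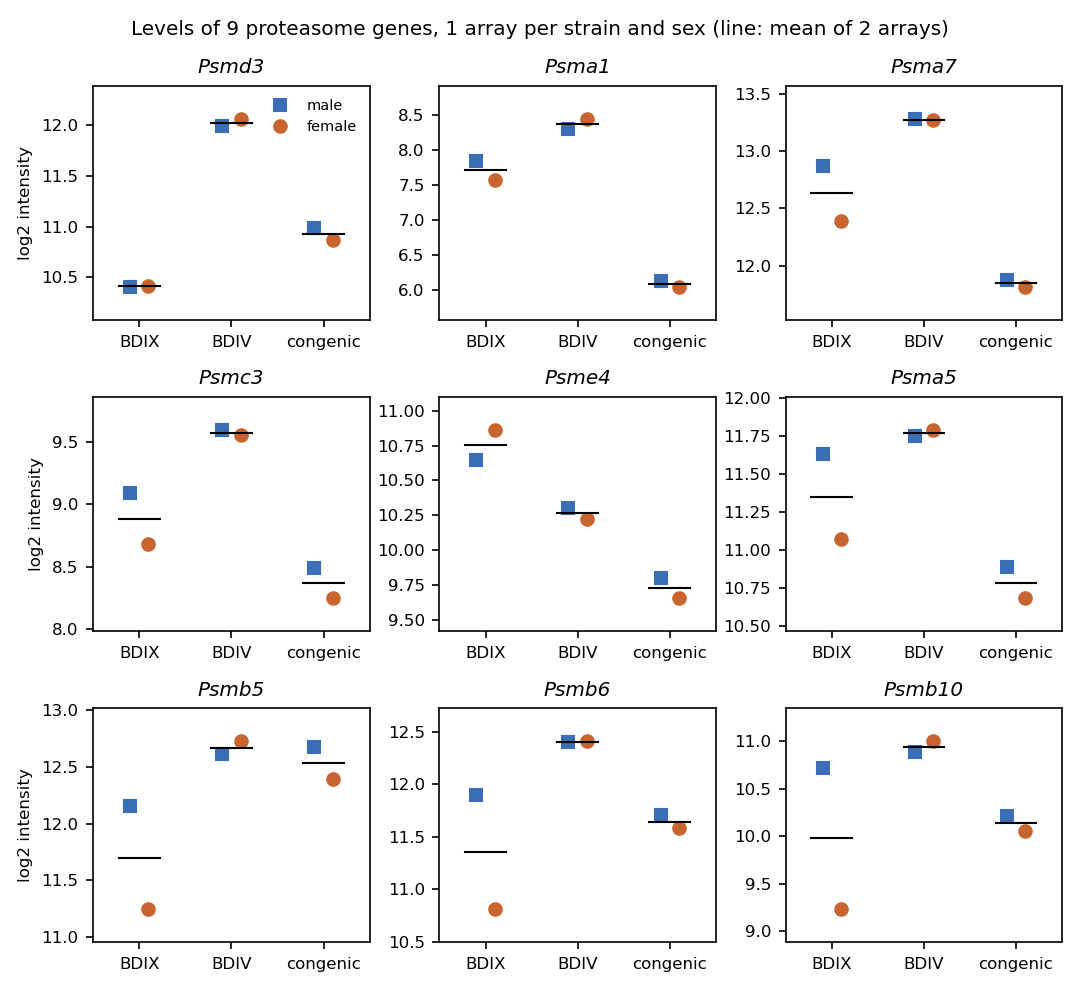
Log2 intensity of 9 proteasome genes on the 6 arrays, male arrays as squares and female arrays as circles, with a line at the mean of the 2 arrays of a strain. For Psma1, Psma5, Psma7 and Psmc3 the congenic pair is lowest, Psmd3 separates BDIV at 12.00 and 12.06 from the other strains, and for Psmb5, Psmb6 and Psmb10 the BDIX female array is the lowest point.

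The third comparison set the congenic strain against BDIV, the donor of its Mss4a segment. Of the 38 genes 11 were lower in the congenic strain and 1 was higher, while 18.9% of all tested probes were called lower and 18.1% higher. The median over the 38 genes was -0.39, against -0.02 over all tested probes, and 35 of 38 values were below 0. Both congenic arrays lay below both BDIV arrays for 32 genes and above for 3, against 39.8% and 39.2% of all tested probes. Sensory neuron markers went the same way, with 8 of 14 lower and none higher, at summed log2 levels of 16.78 and 16.46 in the congenic and 17.19 and 17.20 in BDIV. Other markers went the other way. Higher in the congenic strain were 9 of 9 red cell markers, with sums of 16.26 and 16.02 against 14.27 and 13.76, 7 of 7 airway and oral gland markers, 4 of 6 endothelial and 3 of 9 neutrophil and marrow markers. Of the fibroblast and matrix markers 5 were higher and 2 lower, and of the myelinating Schwann cell markers 2 were higher and 1 lower. The part of these cells in the result was not tested. This comparison shares the BDIV arrays with the first and the congenic arrays with the second, so its values are no further evidence for those above.

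The alpha ring had 4 of 7 tested genes called lower, with a median of -0.83. Psma1 was 4.87 times below BDIV, a log2 difference of -2.28 ± 0.22 (SE, adjusted p = 0.00151) that ranged from -2.92 to -1.66 over the alternatives, and Psma7 was 2.69 times below (-1.43 ± 0.20, adjusted p = 0.00343). Both calls held in all 19 alternatives. Psma5 read 10.89 and 10.69 in the congenic, 11.63 and 11.07 in BDIX and 11.75 and 11.79 in BDIV, and its difference was -0.98 ± 0.20 (adjusted p = 0.0106). Psma6 read 11.96 and 12.05 in the congenic, 12.69 and 12.55 in BDIX and 12.76 and 12.91 in BDIV, and its difference was -0.83 ± 0.18 (adjusted p = 0.0139). For both genes the congenic arrays were the lowest pair. The other alpha genes were not called. Psma2 and Psma4 had 0.03 and 0.27, and Psma3, not detected on either congenic array, was at least 1.39 times lower there (adjusted p = 0.119).

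In the 19S particle the ATPase gene Psmc3 stood out. It read 8.49 and 8.25 in the congenic, 9.09 and 8.68 in BDIX and 9.59 and 9.56 in BDIV. No 2 strains overlapped, and the congenic level was 2.30 times below BDIV (-1.20 ± 0.19, adjusted p = 0.00489). Psmc6, whose probe was not detected on the congenic male array, differed by -1.11 ± 0.32 (adjusted p = 0.0320), and Psmc2 by -0.56 ± 0.17 (adjusted p = 0.0409). Psmc4 was the gene called higher in the congenic strain (0.55 ± 0.18, adjusted p = 0.0437). Under median scaling its value was -0.24, which is 0.40 above the median of all tested probes in that scaling. It read 12.51 and 12.38 in the congenic, 11.96 and 11.77 in BDIX and 11.90 and 11.89 in BDIV.

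Of the lid genes 4 of 7 were called lower. Psmd3 differed by -1.10 ± 0.17 (adjusted p = 0.00439), so that it was called against BDIX in BDIV and against BDIV in the congenic strain, as was Psmc3. Psmd7, the inactive partner of the lid deubiquitinase, differed by -0.71 ± 0.17 (adjusted p = 0.0176) and Psmd12 by -0.53 ± 0.17 (adjusted p = 0.0473). Psmd8 was not detected on either congenic array and was at least 1.20 times lower there (adjusted p = 0.0491). The beta ring had 0 of 8 genes called and a median of -0.31. The catalytic genes had -0.14 for Psmb5 (adjusted p = 0.689), -0.76 for Psmb6 (adjusted p = 0.0673), -0.11 for Psmb7 (adjusted p = 0.678) and -0.81 for Psmb10 (adjusted p = 0.113).

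The median over the 38 genes was -0.29 without the BDIV female array and -0.48 without the BDIV male array. It was -0.41 without the congenic female array and -0.34 without the congenic male array. Over all tested probes the median stayed between -0.02 and 0.00 in these fits. Over the 3 comparisons 20 of the 38 genes (52.6%) were called at least once and 18 in none, while 48.7% of all tested probes were called at least once.

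**Figure D4:**
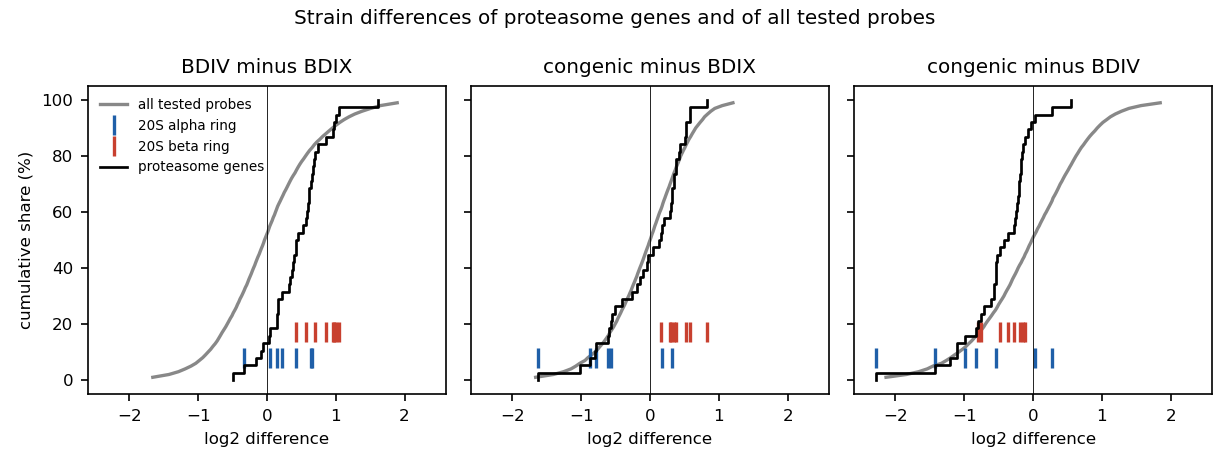
Cumulative share of the 38 proteasome genes (black) and of all 10484 tested probes (grey) by log2 difference, with the alpha and beta ring genes as coloured ticks. The black curve lies to the right of the grey one in BDIV minus BDIX (medians 0.44 and -0.03) and to the left in congenic minus BDIV (-0.39 and -0.02), and the rings separate in congenic minus BDIX.

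Male and female arrays were compared across the strains. The model called 0 of 38 genes and 0% of all tested probes by sex, while 321 of all tested probes and 0 of the 38 genes had an unadjusted p under 0.05. The median male minus female difference was 0.14 over the 38 genes, and 31 were above 0. The 4 genes of smallest p were Psmb3 (0.37), Psme2 (0.41), Psmb6 (0.40) and Psmb10 (0.51), each with an adjusted p of 0.959. These values come mostly from BDIX, where the median male minus female difference was 0.30 and 31 of 38 genes were higher in the male. In BDIV it was -0.01, with 17 higher in the male, and in the congenic strain 0.12, with 29.

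The BDIX female array held the lowest of the 6 values for 19 of the 38 genes, and for 19.6% of all tested probes. Among the 19 were all 8 beta genes and all 3 chaperones. The BDIX male minus female difference had a median of 0.83 in the beta ring, 0.71 in the chaperones and 0.97 in the activators, but -0.01 in the lid. Over all tested probes the SD of that difference was 0.52 in BDIX, 0.45 in the congenic strain and 0.21 in BDIV. With 1 pool per strain and sex no test of sex within BDIX was possible. The part of the low macrophage markers on that array was not tested, nor was that of the uneven neutrophil and pituitary markers. Taken within each sex, the median of BDIV minus BDIX was 0.19 in males, with 31 of 38 genes above 0, and 0.64 in females, with 35. That of congenic minus BDIX was -0.05 in males and 0.24 in females, and that of congenic minus BDIV -0.26 and -0.43.

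**Figure D5:**
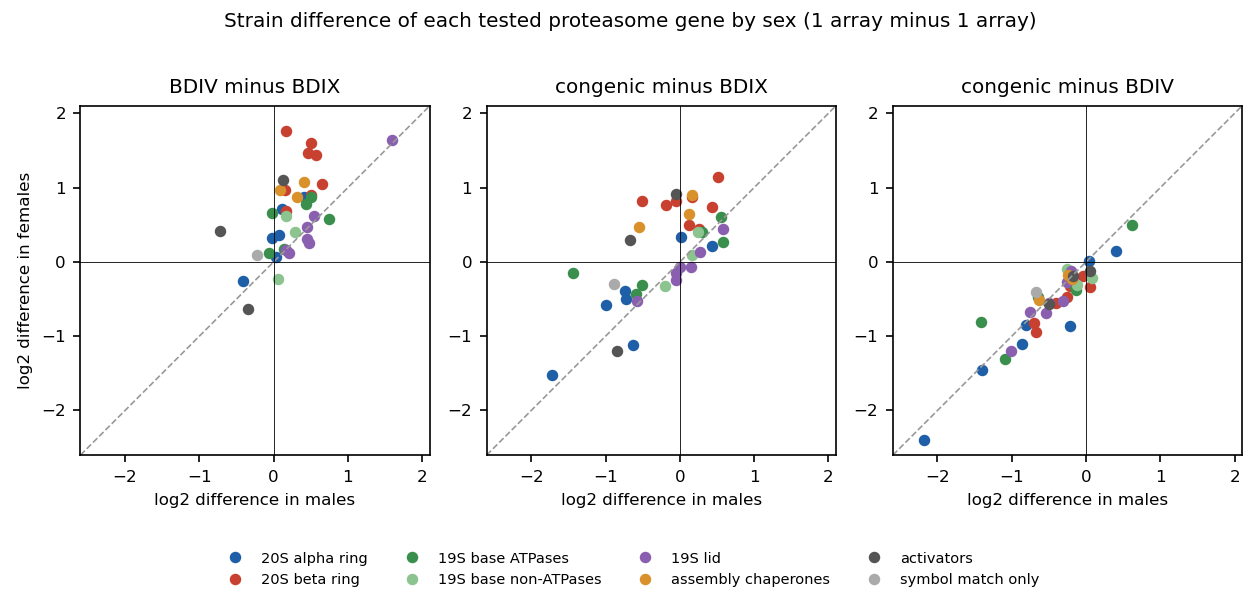
Strain difference of each tested gene in males (horizontal axis) and in females (vertical axis), each 1 array minus 1 array on the log2 scale, coloured by role, with equality dashed. In both comparisons with BDIX all 8 tested beta ring genes lie above the dashed line, and in congenic minus BDIV 35 of 38 genes have the same sign in both sexes.

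How far the genes moved together was described by the Pearson correlation of pairs of genes over the 6 arrays, which share arrays and normalisation and carry no test. Its median was 0.48 over the 703 pairs of tested genes and -0.001 over all pairs of tested probes. It was 0.92 within the beta ring, 0.46 within the alpha ring and 0.31 between alpha and beta genes. With the strain means taken out, the median over all pairs of the set was 0.44, a value not computed for all tested probes. What then remains is the male and female difference within each strain. Over all tested probes its SD was 0.52 in BDIX, 0.45 in the congenic strain and 0.21 in BDIV. With the strain means left in, the median correlation was 0.72 for 50 subunit genes of the mitochondrial respiratory chain and 0.40 for 66 cytosolic ribosomal protein genes. In BDIV minus BDIX the respiratory chain had 19 of 50 genes higher and 0 lower with a median of 0.69, and the ribosomal genes had 5 higher and 1 lower of 66 with a median of 0.22. Of all tested probes 13.7% were called higher and 13.6% lower there. In congenic minus BDIV the respiratory chain had 1 higher and 15 lower with a median of -0.49, and the ribosomal genes had 3 higher and 12 lower with a median of -0.17, beside 18.1% and 18.9% of all tested probes. The difference between these sets and the proteasome genes was not tested.

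Other genes of the ubiquitin and proteasome pathway were taken from 4 lists of 78 genes, 44 of which were tested. In BDIV against BDIX 4 were higher (9.09%) and 3 lower (6.82%), below the 13.7% and 13.6% of all tested probes, with a median of 0.05. Vcp, the segregase that extracts ubiquitinated proteins for the proteasome, read 12.48 and 12.57 in BDIX, 13.60 and 13.53 in BDIV and 13.44 and 13.32 in the congenic. The BDIX pair was lowest, and the log2 difference was 1.04 ± 0.19 for BDIV (adjusted p = 0.00968) and 0.85 ± 0.19 for the congenic strain (adjusted p = 0.0353). Pomp, the chaperone that completes the core, read 8.61 and 7.57 in BDIX, 9.01 and 9.19 in BDIV and 9.05 and 8.73 in the congenic. The BDIX female array was lowest here as in the beta ring, and BDIV was higher by 1.01 ± 0.29 (adjusted p = 0.0413). The conjugating enzyme genes Ube2d1 (1.57, adjusted p = 0.00637) and Ube2l6 (1.26, adjusted p = 0.00933) were higher too, and Ube2e3 was lower (-0.75, adjusted p = 0.0227).

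Nfe2l2, whose product is named above as a regulator of subunit transcription, was called lower than in BDIX in both other strains. Its part in the levels of the subunit genes was not tested. Nfe2l2 read 10.67 and 11.06 in BDIX, 9.76 and 9.79 in BDIV and 9.98 and 10.13 in the congenic, so that the BDIX arrays were the highest pair. Its log2 difference from BDIX was -1.09 ± 0.18 in BDIV (adjusted p = 0.00754) and -0.81 ± 0.18 in the congenic strain (adjusted p = 0.0369). Ngly1, the glycanase that activates the Nfe2l1 product, differed by -0.87 ± 0.26 in BDIV (adjusted p = 0.0428). Nfe2l1 itself was not among the tested genes.

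In the congenic strain against BDIX 3 pathway genes were higher (6.82%) and 6 lower (13.6%), beside 4.33% and 7.56% of all tested probes. Nsfl1c and Ufd1, cofactors of the Vcp segregase, fell by 1.44 ± 0.18 and 1.12 ± 0.21 on the log2 scale (adjusted p = 0.0102 and 0.0247), and Uba3, of the enzyme that activates the ubiquitin-like protein NEDD8, fell by 1.5 ± 0.21 (adjusted p = 0.0134). Ubqln4, a shuttle that carries ubiquitinated proteins to the proteasome, rose by 0.99 ± 0.23 (adjusted p = 0.0407). Against BDIV 4 were higher (9.09%) and 7 lower (15.9%), below the 18.1% and 18.9% of all tested probes. Nsfl1c differed by -1.66 ± 0.18 (adjusted p = 0.00180), a call that held in all 19 alternatives in both comparisons, and Ufd1 by -1.24 ± 0.21 (adjusted p = 0.00549). Ube2s and Ube2d1 differed by -1.56 and -1.42 (adjusted p = 0.00275 and 0.00589), and Ubqln4 and Ube2e3 by 1.51 and 0.94 (adjusted p = 0.00435 and 0.00849).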

How the data were processed

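RNA of pooled trigeminal nerves from 3 strains and 2 sexes was hybridised to 6 arrays, grouped by the sample titles. The authors deposited a linear signal intensity and a detection p-value per probe and array, per the file headers. The submitters' processing notes name BeadStudio 3.0. The second table that the authors deposited holds processed intensity values, each array's a linear function of its signal. For 242 probes, none of them a proteasome gene, the processed values did not follow that function on any of the 6 arrays, and these probes were left out. Gene names came from the platform annotation.

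Background was corrected with a normal-exponential model fitted from the detection p-values, followed by an offset of 16, quantile normalisation and log2 (limma 3.58.1, R 4.3.3). The 10484 probes detected (p under 0.01) on 2 or more of the 6 arrays were tested with limma on strain and sex and an intensity trend, which left 2 residual degrees of freedom. The number of arrays limits the precision. Every adjusted p is limma's, Benjamini-Hochberg adjusted over all tested probes, and SE is the fit's standard error. The model fit alone was tested on simulated normal noise with planted differences. For the strain comparisons it recovered 59 to 62 of 100 log2 differences of 1 and 100 of 100 of 2, with 10 to 14 false calls. Background correction, normalisation and the filter were not part of that test. A gene not detected on either array of a strain has its fold as "at least", the brighter mean against a floor, which is the probe's own value or, if higher, the lowest value detected on the array. Alternatives were other background corrections, offsets, normalisations, filters and covariates, and each array left out.

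The members, lists and tests were chosen with earlier results of these data known. Named genes were, per comparison, those past the threshold or the 6 of smallest p, the catalytic genes, and up to 4 per pathway list. Values on every array are given for the 8 proteasome genes of smallest p, the catalytic genes and Psmc4, which was added after its values were seen as the gene called higher. They are also given for the pathway genes Vcp, Pomp and Nfe2l2, which the rule for such values did not name. The genes given in other sentences complete their role.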

Additional observations from a re-analysis of the deposited data

Results flagged for a closer look

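Psmb10, which replaces a catalytic beta subunit in the immunoproteasome, differed between congenic and BDIX nerve in opposite directions in the sexes. The log2 difference was -0.50 in males and 0.82 in females, each 1 array minus 1 array, and the difference between the sexes was not tested. The BDIX arrays set it, at 10.72 in the male and 9.23 in the female, against 10.22 and 10.06 in the congenic strain.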

How the results depend on the processing

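Each result was recomputed under 19 alternatives, 13 of processing and 6 with 1 array left out. Median scaling called 23 proteasome genes between BDIV and BDIX (9 as reported; median 0.68), 15 between congenic and BDIX (3 as reported; median -0.40) and 37 between congenic and BDIV (12 as reported; median -1.03). Under it the median of all tested probes moved to 0.07, -0.52 and -0.64, and the median of the proteasome genes relative to that was 0.61, 0.12 and -0.39. The share of all tested probes that were called moved from 27.3% to 32.4%, from 11.9% to 41.2% and from 37% to 56.4%. The share of all called probes that were higher moved from 50.2% to 63.0%, from 36.4% to 2.39% and from 49.0% to 8.42%. BDIV against BDIX had 1 call of 38 with the authors' processed values, beside 21.8% of all tested probes. With no filter it had 4 of 40, beside 10.1%. Congenic against BDIX had 8 of 38 with no sex term, beside 15.6%. With each array left out, calls ranged from 1 to 21, from 2 to 18 and from 2 to 18 in the same order, and the BDIV minus BDIX median from 0.24 to 0.61. In each comparison the smallest and largest of these call counts came with the smallest and largest shares of all tested probes called. The causes of these changes were not tested.

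Under median scaling the sign turned for 2, 17 and 3 of the 38 genes in the 3 comparisons, and relative to the median of all tested probes for 2 in each. Of called values, Psmc4 turned in congenic minus BDIV but not relative to that median, and Psmd8 there turned relative to it only, to 0.10. Signs turned for 1, 3 and 7 genes with the authors' processed values. Without single arrays the sign turned for up to 6 of the 38 genes in a strain comparison. Among the catalytic genes, between congenic and BDIX under median scaling Psmb6 was -0.29, Psmb7 -0.21 and Psmb10 -0.50, and with arrays left out Psmb6 ranged from -0.23 to 0.81 and Psmb10 from -0.57 to 0.89. Between congenic and BDIV Psmc4 was -0.24 under median scaling. With the authors' processed values Psmb5 was 0.027 and Psmb7 0.070, and with arrays left out they ranged from -0.49 to 0.21 and from -0.28 to 0.054. Of the calls of proteasome genes, 1 of 9, 1 of 3 and 2 of 12 held in all 19 alternatives. Of the calls of pathway genes, taken up to 4 per list, 0 of 7, 2 of 9 and 2 of 9 held. In BDIV minus BDIX Pomp and Ngly1 were not called with no filter or with no sex term. Nor was Pomp with the authors' processed values, or Ngly1 under median scaling or with no intensity trend. In congenic minus BDIX Nfe2l2 and Ubqln4 were not called with no filter, nor was Ubqln4 under median scaling or with the authors' processed values. Each of these calls was also lost when certain single arrays were left out. The dim congenic arrays limit genes near background, such as Psma1, Psma3, Psmd8 and Psmc6. The sex term pairs the arrays of the strains, and without this block 11, 8 and 13 genes were called, beside 29.4%, 15.6% and 39.7% of all tested probes. Ranked among tested probes in place of all probes, the median gene lay between the 86.7th and 91.9th percentile.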
